A study of Homo sapiens with 2 samples.

Results

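In a genome-scale CRISPR/Cas9 knockout screen of 19112 targeted genes, 62 of the 2106 genes that met the coverage rule below (2.94%) had no sorted read. They are called wholly lost here. Of the single guides of those 2106 genes, 41.9% had no sorted read. The members were chosen by their read counts: after 3 repeated entries were dropped, a gene had to list exactly 4 single guide RNAs (sgRNAs), each with at least 100 reads in the unsorted library and 0 reads in the sorted library, and a gene whose 4 sgRNAs all had 200 or more unsorted reads was left out. The screen was done in A673, an Ewing sarcoma cell line. The line was a single knock-in clone in which tdTomato follows the endogenous fusion gene EWSR1::FLI1, and it also carried Cas9 and EGFP. Both groups carried these alleles and the Brunello library of sgRNAs, delivered at a multiplicity of infection of 0.3, and both had 12 days of puromycin at 2 µg/ml and 3 days of recovery. The unsorted group is the whole population (1 library, 10483144 reads), and the sorted group is the tdTomato-low EGFP-high gate, stated to hold about 7% of cells and expanded before sequencing (1 library, 1455322 reads).

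In a pooled knockout screen the lentiviral cassette that a cell carries marks the gene that Cas9 cut in it, so reads of an sgRNA stand for the cells that carry it. A knockout that lowers the fusion protein but not EGFP moves a cell into the tdTomato-low EGFP-high gate, and the screen was built to find such sgRNAs as enriched. The genes described here had no read of any sgRNA after sorting. A count of 0 was itself common, at 57.6% of all listed sgRNAs, and does not by itself mark depletion from the gate. Neither population has a replicate, so no difference between the libraries has a replicate check, and as the counts chose the genes, their loss is given as a description with no test. The reads come from PCR without molecular identifiers and are not independent molecules, so every interval and limit covers counting error only.

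The guides of the 4 lost genes with the most unsorted reads, and of 6 more genes picked after the members were known for their place in well-studied processes, are printed because they show what was absent: different guides to 1 gene, chosen to cut it at separate sites. Each is written 5′ to 3′ with the 12 bases nearest the protospacer-adjacent motif, the part of a guide least tolerant of mismatches, in capitals. Every guide had 0 sorted reads, and they are given from the most to the least unsorted reads within a gene.
MAML3 sgRNA 1: acctgttcTCGCAGTTGACG
MAML3 sgRNA 2: gtggttccTCTGCTCCGCCG
MAML3 sgRNA 3: cgttcccaAGCACAGCACCG
MAML3 sgRNA 4: acaccgtgAGCCTCTACCAG
FAM214A sgRNA 1: cgttcaacAACTTACTGTCG
FAM214A sgRNA 2: agtgtgttACATGCAAAAAG
FAM214A sgRNA 3: tgttaggaGACATCAGTGAT
FAM214A sgRNA 4: ggtctgagGTCACATTGTTG
ATP2C2 sgRNA 1: aatgagcaTGATGAGACCTG
ATP2C2 sgRNA 2: gtctgtgaAGATGATAACGG
ATP2C2 sgRNA 3: gatgtcgtATCTCTCTCGAT
ATP2C2 sgRNA 4: gaaatgcaGTCTGAAGACTG
CRBN sgRNA 1: accaatgtTCATATAAATGG
CRBN sgRNA 2: tgtatgtgATGTCGGCAGAC
CRBN sgRNA 3: ctgactgtGTTCTTAGCTCA
CRBN sgRNA 4: tgaagaggTAATGTCTGTCC
OTX1 sgRNA 1: cagctgtgAACGCGTGAAGG
OTX1 sgRNA 2: cgcacctgGACTCTAGACTC
OTX1 sgRNA 3: tacggagcGCTGCATACACG
OTX1 sgRNA 4: tggtgtacTCAGCGACGACG
CD59 sgRNA 1: acgacgtcACAACCCGCTTG
CD59 sgRNA 2: aaggagggTCTGTCCTGTTC
CD59 sgRNA 3: ctgaatggCAGAAGACAGCC
CD59 sgRNA 4: aaaatcagATGAACAATTGA
UVRAG sgRNA 1: gactagggACTCCAGACTTG
UVRAG sgRNA 2: aggaatccCTAAATGAGCTG
UVRAG sgRNA 3: tatgaattATAGGATATCTG
UVRAG sgRNA 4: aaaatcgaGACTTCGCCACG
USP15 sgRNA 1: ccaagttaCTTAGGCCACAG
USP15 sgRNA 2: tctaactaAGTAAACTTCCA
USP15 sgRNA 3: atttcacaGAATATTCGCTA
USP15 sgRNA 4: aaggtgttCCTTAAGTGACT
SRM sgRNA 1: ggtccagtGTGAGATCGACG
SRM sgRNA 2: ctcgaagcTGACCCTACATG
SRM sgRNA 3: ggacggtgTCATCCAGTGCA
SRM sgRNA 4: actgactcCTCAGACCCCAT
PANX1 sgRNA 1: tgcgaaacGCCAGAACAGCG
PANX1 sgRNA 2: tggtcacgTGCATTGCGGTG
PANX1 sgRNA 3: tgtggattCATATTGCTGGG
PANX1 sgRNA 4: ctgttagcGTGTATCTACCT

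These 62 genes are a small part of the genes with like coverage. Of the 2106 genes with 4 listed sgRNAs at 100 or more unsorted reads each, not all at 200 or more (called covered genes here), 62 had 0 sorted reads for all 4 sgRNAs, or 2.94% (exact 95% interval 2.26 to 3.76%). Absence of a single sgRNA was common. Of all 74336 listed sgRNAs 57.6% had 0 sorted reads, and of the 8424 sgRNAs of covered genes 41.9% did. Among covered genes, 272 had all 4 sgRNAs in the sorted library, 663 lacked 1, 707 lacked 2 and 402 lacked 3. Whether the 4 sgRNAs of a gene were absent together more often than these single shares would give was not tested.

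**Figure D1:**
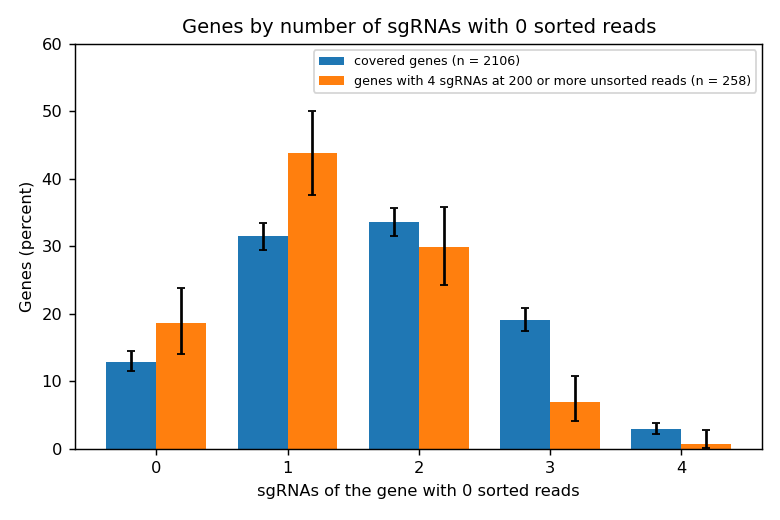
Share of genes (vertical axis, percent; bars show exact 95% intervals) by the number of their 4 sgRNAs with 0 sorted reads (horizontal axis), for the 2106 covered genes and for the 258 genes with all sgRNAs at 200 or more unsorted reads. The wholly lost genes are the blue bar at 4, 62 genes or 2.94%, and most covered genes lacked 1 or 2 sgRNAs.

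Few covered sgRNAs had low sorted counts other than 0. Outside the 62 genes, 3283 of 8176 sgRNAs (40.2%) had 0 sorted reads, only 334 (4.09%) had 1 to 5, and those with any sorted read showed a median of 44. Unsorted coverage was slightly lower for lost genes: their 248 sgRNAs had a median of 189.5 reads with quartiles of 136 and 262, and those of the other 2044 covered genes had quartiles of 144 and 295. The summed unsorted reads of a gene had a median of 875.5 for lost and 917 for other covered genes. Absence did move with coverage over the library, from 78.1% of sgRNAs with under 10 unsorted reads to 55.0% of those with 100 to 149 and 28.5% of those with 500 to 999. Of the 258 genes with every sgRNA at 200 or more, only 2 (0.775%) were wholly absent.

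**Figure D2:**
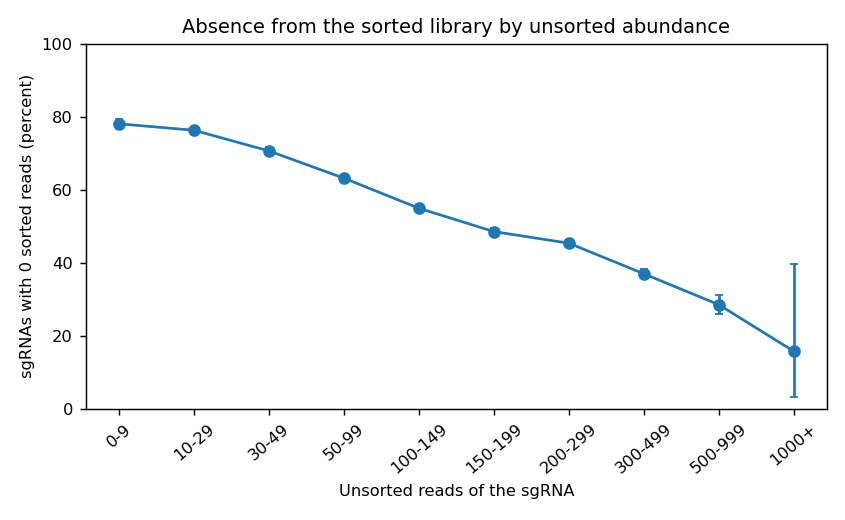
Share of all listed sgRNAs with 0 sorted reads (vertical axis, percent; bars show exact 95% intervals) by unsorted reads of the sgRNA (horizontal axis, in classes). The share falls from 78.1% in the lowest class to 28.5% at 500 to 999 unsorted reads; the last class holds 19 sgRNAs.

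Had they kept their unsorted share, the 248 sgRNAs of the lost genes, with 54670 unsorted reads, would have given 7590 sorted reads at the depth of that library. A single sgRNA would have given from 13.9 to 101 reads, with a median of 26.3. Sorted reads, where above 0, did not rise in proportion to unsorted reads. Among all listed sgRNAs with a sorted read, the median was 39 at 100 to 149 unsorted reads and 50 at 500 to 999. An equal share of the median unsorted count in these classes would be 16.9 and 79.3 reads. Against a floor of 3 reads for each sgRNA, taken as the limit of a count of 0, the bound on its loss ran from 4.63-fold to 33.6-fold. With a floor of 3 reads for the 4 sgRNAs of a gene together, the bound on a gene ran from 23.0-fold to 65.7-fold, with a median of 40.5-fold. Both bounds leave out the counting error of the unsorted reads. They concern the counting of reads only and set no limit on the loss of cells. As every member had 0 sorted reads, the bounds of members differ only by their unsorted reads and do not rank the loss. The exact 95% interval of the ratio of shares has a limit on each side, unlike the floor, and takes in the counting error of both libraries. Its upper limit corresponds to a loss of 3.69-fold to 27.3-fold for an sgRNA and of 18.7-fold to 53.3-fold for a gene.

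Genes just outside the thresholds were similar. Just inside it, PHACTR3 had 169, 119, 110 and 100 unsorted reads, KRT25 had 195, 181, 160 and 100, and MEPE had 232, 125, 114 and 101. Just outside, TBC1D24, TBCD and MRPS27 also had 0 sorted reads for all sgRNAs, and their lowest sgRNAs had 99, 99 and 98 unsorted reads. At the upper end, TEX37 and LIPF had 197 reads for their lowest sgRNA. The pair left out for too many reads was A2M (873, 279, 276 and 213) and KCTD3 (575, 378, 259 and 251). ZSWIM7, PNMT and MUC4 were left out for a single sorted read. In all, 2158 genes with 4 listed sgRNAs had no sorted read, and 2094 of them had at least 1 sgRNA under 100 unsorted reads.

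The 62 genes covered many roles. These groups were made for the lost genes alone, so no share of covered genes stands beside their counts. Grouped by their textbook roles, 10 are little characterized, 9 belong to the cytoskeleton and 7 are metabolic or secreted. There are 6 transcription factors or coactivators and 6 genes of RNA metabolism or translation, and 5 each were placed under membrane transport and under cell cycle or DNA. Another 4 each act in ubiquitin transfer, in lysosomes and autophagy, and in complement or immune recognition, and 2 act in kinase or RAS signaling. The groups overlapped in coverage, with medians over their sgRNAs from 148.5 unsorted reads for ubiquitin genes to 230.5 for the immune genes.

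**Figure D3:**
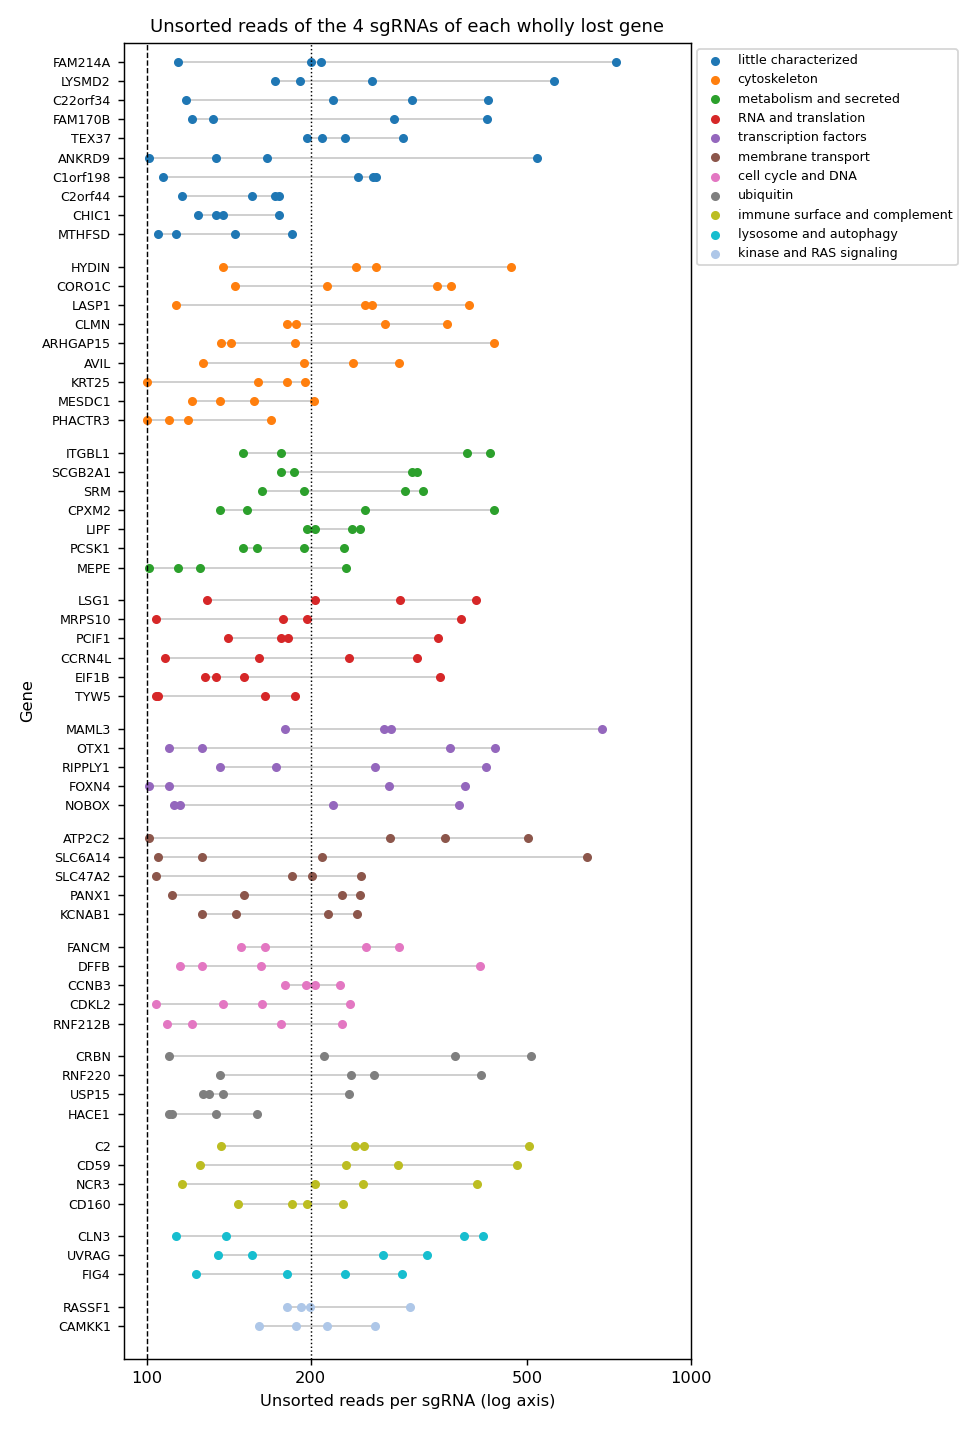
Unsorted reads (horizontal log axis) of each of the 4 sgRNAs (points) of 60 of the 62 wholly lost genes (rows), coloured by the group of the gene; grey lines span the lowest to the highest sgRNA, and the dashed and dotted lines mark 100 and 200 reads. All points have 0 sorted reads, the groups overlap in coverage, and the sgRNAs of a gene differ by up to 6.38-fold.

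Among transcriptional regulators, MAML3, a Mastermind-like coactivator that binds the Notch intracellular domain, had the most unsorted reads of all lost genes. Its sgRNAs had 686, 281, 273 and 179 unsorted reads and 0 sorted reads, a bound of 65.7-fold, or 53.3-fold by the exact interval. The forkhead factor FOXN4, which acts in retinal and spinal progenitors, had 384, 279, 110 and 101, and RIPPLY1, a repressor in somite formation, had 420, 262, 173 and 136. Among homeobox genes, OTX1, a forebrain factor, had 437, 361, 126 and 110, and NOBOX, an oocyte factor, had 374, 220, 115 and 112.

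The ubiquitin genes were CRBN, HACE1, USP15 and RNF220. CRBN, the receptor through which thalidomide and its analogs direct the CRL4 ligase to new substrates, had 508, 369, 212 and 110 unsorted reads. Its bound was 55.5-fold. The RING ligase RNF220 had 412, 261, 237 and 136. USP15, a ubiquitin-specific protease, had 235, 138, 130 and 127, and HACE1, a HECT ligase, had 159, 134, 111 and 110, the least summed reads after PHACTR3. The bounds of these 4 genes ran from 23.8-fold to 55.5-fold. In the list of deubiquitinases USP15 was 1 of 11 covered genes (9.09%, exact 95% interval 0.230 to 41.3%), and RNF220 and RNF212B were 2 of 19 in the list of TRIM and RNF genes (10.5%, 1.30 to 33.1%). Both intervals hold the 2.94% of all covered genes.

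The lysosomal and autophagy genes included CLN3, UVRAG and FIG4. CLN3, the membrane protein mutated in juvenile Batten disease, had 414, 383, 140 and 113 unsorted reads. UVRAG, which joins Beclin 1 in the VPS34 lipid kinase complex, had 327, 272, 156 and 135. FIG4, a phosphatase of endolysosomal phosphoinositides, had 294, 231, 181 and 123. Their bounds ran from 38.4-fold for FIG4 to 48.6-fold for CLN3.

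Genes of RNA metabolism and translation included LSG1, a GTPase that acts late in maturation of the large ribosomal subunit (402, 292, 204 and 129 unsorted reads), MRPS10 of the mitochondrial ribosome (378, 197, 178 and 104) and EIF1B, a relative of the start codon factor EIF1 (346, 151, 134 and 128). PCIF1, which methylates the adenosine beside the mRNA cap, had 343, 182, 176 and 141. CCRN4L, the circadian phosphatase nocturnin, had 314, 235, 161 and 108, and TYW5, a tRNA-modifying hydroxylase, had 187, 165, 105 and 104. TYW5 was the least covered of these, with a bound of 26.0-fold against 47.5-fold for LSG1.

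Genes of the cell cycle and of DNA had a median of 170.5 unsorted reads over their sgRNAs. FANCM, a DNA translocase of the Fanconi anemia pathway, had 291, 253, 165 and 149 unsorted reads. DFFB, the nuclease that cuts chromatin in apoptosis, had 409, 162, 126 and 115. CCNB3, a B-type cyclin of meiosis, had 226, 204, 196 and 179, one of the most even sets, its highest 1.26 times its lowest. CDKL2, a CDK-like kinase placed in this group but listed with CAMKK1 among other protein kinases, had 236, 163, 138 and 104. RNF212B, a RING protein of meiotic crossover sites, had 228, 176, 121 and 109.

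The cytoskeletal genes were HYDIN, CORO1C, LASP1, CLMN, ARHGAP15, AVIL, KRT25, MESDC1 and PHACTR3. HYDIN, needed for the central pair of motile cilia, had 466, 264, 242 and 138 unsorted reads, and CORO1C, an actin-binding coronin, had 362, 342, 214 and 145. LASP1, which binds actin at focal adhesions, had 390, 259, 252 and 113. By list, 0 of 14 covered actin, myosin, tubulin and dynein genes and 0 of 15 covered primary cilium genes were lost. The exact intervals of these shares were 0 to 23.2% and 0 to 21.8%. KRT25 was 1 of 5 covered keratin and keratin-associated genes (exact interval 0.505 to 71.6%). ARHGAP15 and RASSF1 were 2 of 44 covered small GTPases and their regulators (4.55%, exact interval 0.555 to 15.5%). Each of these intervals holds the 2.94% of all covered genes, so the counts do not set these lists apart from it. The group ended with PHACTR3, a phosphatase and actin regulator, which had the fewest summed reads of the 62 genes (498). Its bound was therefore the weakest, 23.0-fold.

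Of the membrane transport genes, ATP2C2, a Golgi pump for calcium and manganese, had 501, 353, 280 and 101 unsorted reads, and SLC6A14, an amino acid transporter, had 644, 210, 126 and 105. SLC47A2, an exporter of organic cations, had 247, 201, 185 and 104, PANX1, a channel that releases ATP, had 246, 228, 151 and 111, and KCNAB1, a subunit of potassium channels, had 243, 215, 146 and 126. Thus 2 of the 53 covered solute carriers (3.77%) and 1 of 40 covered ion channel genes (2.50%) were lost, close to the 2.94% of all covered genes.

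The immune genes were C2, CD59, NCR3 and CD160. C2, a protease component of the classical complement pathway, had 504, 251, 241 and 137 unsorted reads, and CD59, a GPI-anchored inhibitor of the membrane attack complex, had 479, 289, 232 and 125. NCR3, an activating receptor of natural killer cells, had 404, 250, 204 and 116, and CD160 had 229, 197, 185 and 147. The lost genes also included proteins known from single tissues, such as gastric lipase LIPF (246, 238, 204 and 197), which had the most even sgRNAs of all, the bone matrix protein MEPE and the secretoglobin SCGB2A1 (313, 307, 186 and 176).

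The other metabolic and secreted genes were ITGBL1, SRM, CPXM2 and PCSK1. SRM, spermidine synthase, had 321, 298, 194 and 163 unsorted reads, and PCSK1, a prohormone convertase, had 230, 194, 159 and 150. ITGBL1 had 427, 388, 176 and 150. The signaling genes CAMKK1, a kinase upstream of calcium/calmodulin-dependent kinases, and RASSF1, a tumor suppressor, had 263, 214, 188 and 161, and 304, 199, 192 and 181. The little characterized genes ranged from FAM214A (727, 209, 200 and 114) and LYSMD2 (560, 259, 191 and 172) down to MTHFSD (185, 145, 113 and 105), and also held ANKRD9, C1orf198, C22orf34, C2orf44, CHIC1, FAM170B and TEX37.

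Of 63 gene lists, 17 held at least 1 lost gene and 46 held none, and 33 of the 62 genes were in no list. Since few covered genes fall in a list, a count of 0 sets only a weak limit. C2H2 zinc finger genes gave 0 of 61 covered genes, which allows a share of up to 4.92% by the limit of 3 counts (exact 95% upper limit 5.87%), and olfactory receptors, mostly silent outside the nose, gave 0 of 47, which allows up to 6.38% (exact 7.55%). Both limits lie above the 2.94% of all covered genes. G protein-coupled receptors outside chemosensation gave 0 of 37. The lists on the fusion partners and their relatives (3 covered genes), on EWSR1::FLI1 targets (5), on Hedgehog activation (2) and restraint (1), on core O-glycan enzymes (2), the BAF complex (5), Polycomb (6) and Mediator (4) each held 0 lost genes. Uncharacterized and numbered genes, the largest list, gave 6 of 188 (3.19%), close to the 2.94% of all covered genes. The FLI1 locus carries tdTomato in this line, and sgRNAs against its part of the fusion are of the kind the screen was built to find as enriched. FLI1 also had 0 sorted reads for 4 sgRNAs, but with 153, 72, 15 and 10 unsorted reads it was not covered. The 3 listed sgRNAs of EWSR1 had 19, 28 and 50 sorted reads on 264, 29 and 27 unsorted ones.

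Relatives and known partners of 24 lost genes, a set written down after the lost genes were known and not chosen by their own counts, had shares of absent sgRNAs near that of the library. Of 76 such genes, 62 had sorted reads, and of their 294 sgRNAs 60.2% had 0 sorted reads, against 57.6% over the library. Of the 67 with 4 listed sgRNAs, 12 (17.9%) had no sorted read, against 12.5% of all 17233 genes with 4 listed sgRNAs, whatever their coverage. The CRL4 components beside CRBN stood highest among sets of more than 1 gene, with 12 of 14 sgRNAs at 0, but many of these had few unsorted reads: the 3 of DDB1 had 43, 29 and 15. DFFA, the inhibitor and chaperone of the DFFB nuclease, had 0 sorted reads for 4 sgRNAs with 285, 111, 41 and 40 unsorted reads. SLC47A1, the relative of SLC47A2, also had 0 for all 4, with 50 to 69 unsorted reads each.

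Other sets were mixed. Of the VPS34 complex and Beclin 1 genes beside UVRAG, 11 of 16 sgRNAs had 0 sorted reads. PIK3C3 had a sorted share 1.08 times its unsorted share, PIK3R4 0.470 times, BECN1 0.235 times and SH3GLB1 0.0105 times, the last with 1 sorted read against 683 unsorted ones. Of the Fanconi anemia genes beside FANCM, 17 of 27 sgRNAs had 0 sorted reads and only FANCG had none. The nearest relatives of USP15, USP4 and USP11, had 91 and 72 sorted reads, and MAML2 had 95, while MAML1 had 0 on 188 unsorted reads. In the polyamine pathway SRM stood beside SMS with 56 sorted reads and AMD1 with 0, the latter on 164 unsorted reads.

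**Figure D4:**
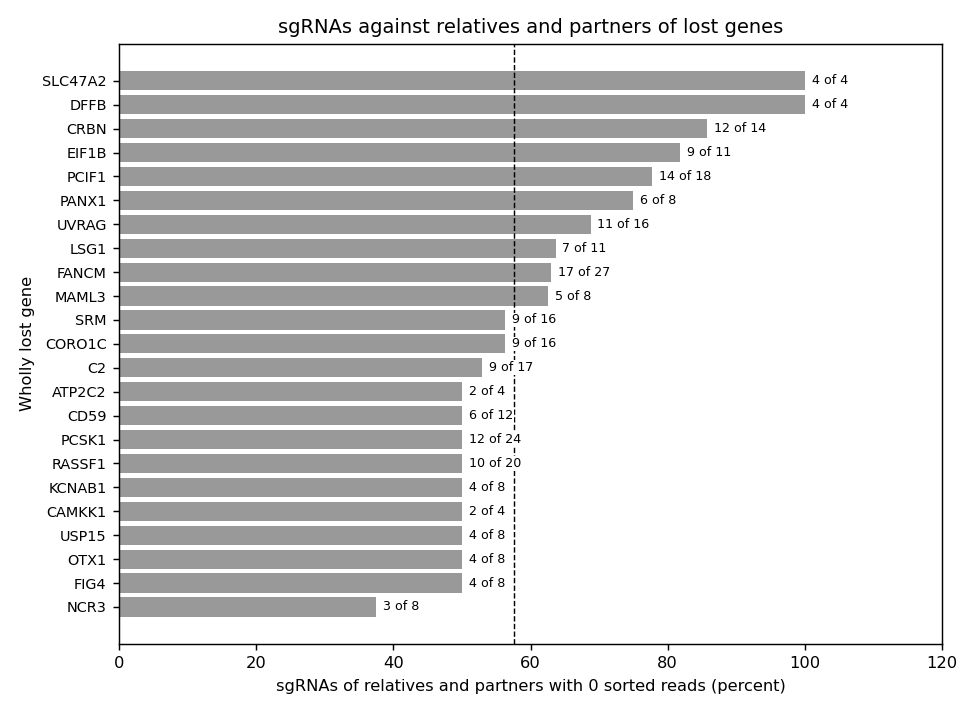
Share of sgRNAs with 0 sorted reads (horizontal axis, percent; counts beside the bars) among relatives and partners of 23 wholly lost genes (rows), with the 57.6% of all listed sgRNAs as a dashed line. The bars lie on both sides of the line, and the highest with more than 1 gene is that of CRBN, 12 of 14.

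The guide sequences, which the selection did not use, are described without a test. GC content had a median of 50% in both sets, with a mean of 50.5% ± 11.4 (SD over 248 sgRNAs) for lost genes and 50.9% ± 10.7 (8176 sgRNAs) for the others. No lost sgRNA held a run of 4 T, which ends transcription from the U6 promoter, and neither did any other covered sgRNA. The base next to the protospacer-adjacent motif was G in 58.9% of lost and 54.3% of other sgRNAs. Reads were mapped with up to 3 mismatches and only unique matches were kept. Every lost sgRNA had at least 4 mismatches to any other listed sgRNA, as did all but 1 of the 8176 other covered sgRNAs. Of the 62 lost genes, 61 were placed in the order of protein-coding genes. No pair of these was adjacent, and 4 pairs lay within 10 genes of each other: AVIL and USP15, CORO1C and FOXN4, LYSMD2 and FAM214A, and CCRN4L and MAML3.

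**Figure D5:**
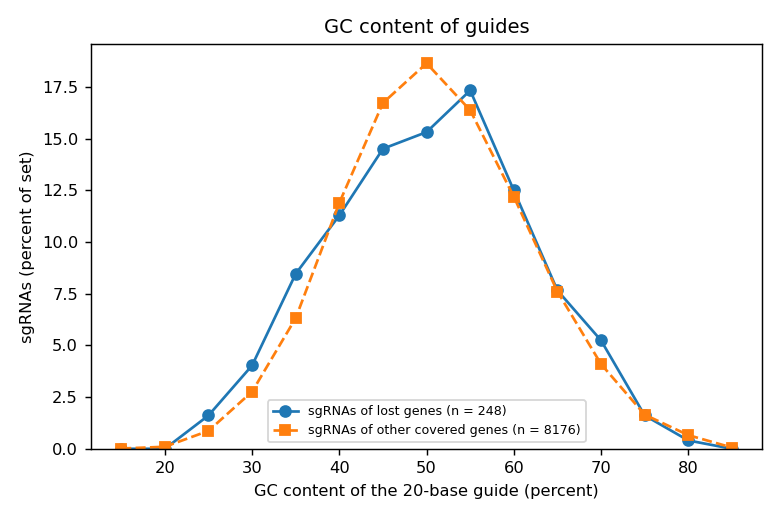
Share of sgRNAs (vertical axis, percent of each set) by GC content of the 20-base guide (horizontal axis, percent), for 248 sgRNAs of wholly lost genes (circles) and 8176 sgRNAs of other covered genes (squares). Both distributions have a median of 50%.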

How the data were processed

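Guide cassettes were amplified from genomic DNA of 1 unsorted and 1 sorted population of A673 reporter cells. Per the file headers and the submitters' notes, the authors aligned reads to the Brunello guides (Bowtie, version 1.2.2). They deposited raw whole-number counts for each sgRNA, which sum to the stated library total in both libraries, the unsorted being 7.20 times deeper. The deposited p-value and odds ratio columns hold the authors' own comparison and were not used.

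Gene symbols are the deposited ones. RefSeq (GRCh38.p14) matched all 62 genes and was used only for names and gene order. It gives newer symbols for FAM214A (ATOSA), C22orf34 (MIR3667HG), TEX37 (SPMIP9), CCRN4L (NOCT), C2orf44 (WDCP) and MESDC1 (TLNRD1). Values of 2 of the 62 genes are not reported here by name, though they are in every count. Coordinates are not given, since the files name no genome build.

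The members and gene lists were chosen with earlier results of these data known. Genes were named by summed unsorted reads, nearness to a threshold and list membership, and the remaining members, the relatives and partners were added afterwards. Fold bounds are ratios of library shares against a floor of 3 reads, and intervals are exact (Clopper-Pearson, 95%). Alternatives were other minimum counts, sorted reads allowed, listed sgRNAs, floors and scalings. The code for the selection and intervals was run on simulated data, which checks the code only and not the loss in these libraries. Software was Python 3.11.15, with scipy 1.17.1, numpy 2.4.6, matplotlib 3.10.9 and pandas 2.3.3.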

Additional observations from a re-analysis of the deposited data

How the results depend on the processing

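The number of wholly lost genes moved with the minimum of unsorted reads, to 442 (6.62% of covered genes) with at least 50 reads and 13 (2.33%) with at least 150, and with the sorted reads allowed, to 102 (4.84%) at up to 5 per sgRNA. It was 73 with up to 1 sorted read, 64 with the genes at 200 or more kept, 78 with 3 or more listed sgRNAs and 62 with repeated entries kept. The median bound of 40.5-fold became 122-fold with a floor of 1 read and 75.9-fold when libraries were scaled on the sgRNAs with sorted reads, and was 39.2-fold when scaled on olfactory receptor sgRNAs. The median GC difference was 0 under both alternatives tried. By means, an alternative chosen after seeing the data, it was -0.35 percentage points. No paired analysis was possible because each group has 1 library.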

Other observations

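Another 39 covered genes missed the selection by 1 to 5 sorted reads over their 4 sgRNAs, and 11 of them had a single read. ZSWIM7, a partner in homologous recombination, had 714, 559, 199 and 138 unsorted reads and 1 sorted read. The others with a single read were PNMT, MUC4, ZNF263, IER3, CD274 (the immune checkpoint ligand PD-L1), NABP1, ATP10B, SORCS1, SH3GLB1 and ADGRG2. The Notch ligand JAG1 had 2 sorted reads on 333, 205, 176 and 127 unsorted reads. The homeobox gene HOXB5 had 2 on 298, 264, 135 and 100, and MCU, the pore of the mitochondrial calcium uniporter, had 2 on 243, 151, 147 and 146. Whether such low counts come from cells in the gate or from other reads was not tested.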
